A study of Mus musculus with 14 samples.

Results

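RNA levels of 38 genes of glycolysis and of the response to low oxygen were followed across mouse lung development. Of these, 16 encode glycolytic enzymes. The 22 others encode further proteins of sugar use, subunits of hypoxia-inducible factor, or products of genes that low oxygen induces. The members were chosen by gene symbol. Where several probe sets carried a symbol alone, the one brightest on average across all 14 arrays stood for the gene, and 34 of the 38 members could be represented, among 18193 genes in all. The 34 were 13 of the 16 glycolytic enzymes and 21 of the 22 other members. Gpi1 (glucose phosphate isomerase), Eno1 (the main enolase) and Bnip3l (a mitochondrial relative of Bnip3) were not analysed here, because no probe set carried their symbol alone. Gapdh (glyceraldehyde phosphate dehydrogenase) was read only from 3 control probe sets of the array and is left out of the counts.

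Glycolysis splits glucose into pyruvate and yields ATP without oxygen, and lactate dehydrogenase then turns pyruvate into lactate. When oxygen is scarce, the prolyl hydroxylases that mark hypoxia-inducible factor (HIF) alpha subunits for destruction slow down, and HIF binds short DNA elements near genes for glucose transporters, glycolytic enzymes, mitophagy and collagen modification. The fetal lung grows at a low oxygen tension and is exposed to air at birth, and Epas1 (HIF-2 alpha) is known for its role in lung endothelium and surfactant-producing cells.

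Total RNA of whole lungs of ICR mice, an outbred strain with no engineered allele or treatment in any group, had been hybridised to 14 oligonucleotide arrays. Each of the 7 time points had 2 arrays: embryonic days 12, 14, 16 and 18 (E12, E14, E16, E18, with the plug day as day 0), postnatal days 2 and 10 (P2, P10) and postnatal day 30 (Adult). The RNA came from pooled lungs, and nothing states how many animals a pool held or whether both arrays of a time point were separate pools, so each p-value measures the spread between these arrays, which may be technical. Values are on a log2 scale, where 1 unit is a 2-fold change in array signal, and values of different genes are not comparable with each other. In whole lungs, fewer cells of a type and less RNA per cell cannot be told apart.

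Some arrays stood apart or went against their labels. All samples were labelled female, yet Xist, the RNA of the inactive X chromosome, read between 6.88 and 7.41 on the P2 and P10 arrays against 11.97 to 13.32 on all others. The Y-linked gene Eif2s3y read 8.35 to 8.61 at P2 and P10, 6.95 to 8.10 at E12, E14 and E18, 7.14 and 3.13 on E16 replicates 1 and 2, and 3.60 and 2.86 in Adult. Sex and age therefore changed together from E18 to P2, from P10 to Adult and between E12 and Adult. E16 replicate 2 lacked the Y-linked signal of the other embryonic arrays, so the sex mix also differed in comparisons with E16. The shares of sex and age in all these comparisons cannot be told apart. The summed signal of 13 heart muscle markers was 14.67 on the log2 scale on E16 replicate 1 and 12.34 on replicate 2. Member counts for comparisons with E16 are therefore also given without replicate 1. Counts of genes outside the module, and counts with an added size threshold, are given with all arrays only. All 9 lung epithelial markers had a highest time-point mean above 7, and they summed to between 12.54 and 16.86, a sum carried mostly by the brightest. From E12 to E14, 2 of the 9 were higher and 1 was lower. The lowest difference was -4.65, which was also the lowest among all 18193 genes over that step. Correlations between the arrays of a time point lay between 0.9953 and 0.9977.

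The DNA letters that HIF recognises were looked for in RefSeq promoter windows of mouse assembly GRCm38.p6, each 300 bases long from 250 before to 50 after an annotated start. Windows were found for 34 of the 38 members, 51 in all, and none was listed for Slc2a3, Epas1, Bnip3l or Ndrg1. ACGTG on either strand occurred in 28 of the 51 windows (54.9%) and in 19.6% of all 32851 windows. ACGTG or GCGTG occurred in 40 of the 51 (78.4%) against 43.8%, in 20 of 27 windows of glycolytic enzymes and 20 of 24 of the other members. The E-box CACGTG, which contains ACGTG and binds other factors, was in 5 of the 51 (9.80%) against 7.15%. The member windows were also richer in CpG, with a median of 21 CpG against 7 in all windows, and the part of this composition in the shares was not tested. A match describes letters only and does not show that a factor binds there. The 6 windows below belong to members with a large change around birth and to Pgk1, an enzyme of the later steps of glycolysis. Capitals mark ACGTG or GCGTG read on either strand, and a CACGTG counts as a match on each strand.

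Ankrd37, chr8:45999801-46000100, minus strand, 4 matches:
Ankrd37: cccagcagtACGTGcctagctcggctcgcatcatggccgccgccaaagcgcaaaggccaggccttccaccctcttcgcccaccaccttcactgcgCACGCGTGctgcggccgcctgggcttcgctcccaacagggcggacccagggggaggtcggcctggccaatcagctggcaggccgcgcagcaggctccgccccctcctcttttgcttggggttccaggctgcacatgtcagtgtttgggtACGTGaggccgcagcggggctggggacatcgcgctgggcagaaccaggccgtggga
Bnip3, chr7:138909457-138909756, minus strand, 5 matches:
Bnip3: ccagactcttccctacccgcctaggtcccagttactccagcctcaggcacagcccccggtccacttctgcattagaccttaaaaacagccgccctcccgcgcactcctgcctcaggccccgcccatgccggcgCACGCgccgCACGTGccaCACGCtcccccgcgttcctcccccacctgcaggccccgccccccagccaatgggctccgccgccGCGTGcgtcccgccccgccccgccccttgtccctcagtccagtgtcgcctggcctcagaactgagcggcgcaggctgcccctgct
Egln3, chr12:54203825-54204124, minus strand, 1 match:
Egln3: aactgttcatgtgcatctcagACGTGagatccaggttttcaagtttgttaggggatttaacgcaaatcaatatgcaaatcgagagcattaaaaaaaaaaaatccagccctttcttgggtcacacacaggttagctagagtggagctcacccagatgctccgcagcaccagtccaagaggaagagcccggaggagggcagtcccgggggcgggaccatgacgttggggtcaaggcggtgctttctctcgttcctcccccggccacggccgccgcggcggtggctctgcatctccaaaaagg
Hk2, chr6:82774405-82774704, minus strand, 2 matches:
Hk2: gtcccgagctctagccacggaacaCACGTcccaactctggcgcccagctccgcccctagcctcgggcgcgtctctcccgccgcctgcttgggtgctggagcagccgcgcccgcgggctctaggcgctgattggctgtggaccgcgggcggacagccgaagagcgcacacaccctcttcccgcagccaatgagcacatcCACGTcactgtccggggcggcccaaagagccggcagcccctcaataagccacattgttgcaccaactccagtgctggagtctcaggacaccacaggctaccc
Slc2a1, chr4:119108495-119108794, plus strand, 2 matches:
Slc2a1: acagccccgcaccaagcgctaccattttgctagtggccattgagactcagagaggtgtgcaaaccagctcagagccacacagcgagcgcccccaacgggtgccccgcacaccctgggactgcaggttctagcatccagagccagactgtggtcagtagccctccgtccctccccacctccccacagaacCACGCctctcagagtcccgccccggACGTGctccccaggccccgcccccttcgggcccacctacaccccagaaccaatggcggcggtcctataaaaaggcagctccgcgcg
Pgk1, chrX:106186850-106187149, plus strand, 2 matches:
Pgk1: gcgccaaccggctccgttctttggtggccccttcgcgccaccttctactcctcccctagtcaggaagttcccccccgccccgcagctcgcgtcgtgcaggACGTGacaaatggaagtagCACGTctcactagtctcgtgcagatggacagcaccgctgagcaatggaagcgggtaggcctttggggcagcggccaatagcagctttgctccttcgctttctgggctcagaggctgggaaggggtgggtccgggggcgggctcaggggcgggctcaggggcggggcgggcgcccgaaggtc

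Most of the module was higher just before birth than the average of the time points on either side, and most of it fell across birth. Relative to the mean of E16 and P2, E18 was higher for 23 of the 34 members and lower for 1 (limma, adjusted p under 0.05 over all probe sets), where 19.1% of all genes were called higher and 16.3% lower. The split was 8 higher and 0 lower of 13 glycolytic enzymes, with a median difference of 0.30, and 15 higher and 1 lower of 21 other members, with a median of 0.71, beside a median over all genes of 0.01. The lowest enzyme difference was that of Pfkm, -0.05. This contrast also takes in members with no maximum at E18. Of the 8 enzymes, only Aldoc and Eno2 had their highest mean there. Pgam1 was lower at E18 than at E16 (-0.39, adjusted p = 0.0132), and Ldha differed by -0.25 (adjusted p = 0.0655). Among the others, Slc2a1 differed by -0.11 from E16 to E18 (adjusted p = 0.618) and fell at birth, and the probe sets of Epas1 gave 0.61 and -0.06 in the contrast. From E18 to P2, 11 enzymes were lower, and 14 other members were lower and 2 higher, where 10% of all genes were called lower and 8.58% higher. All 13 enzyme differences were below 0, from -2.34 to -0.06, and Pfkm and Pfkp were the ones not called. The step from E16 into E18 was mixed for the enzymes, with 6 higher and 4 lower (median 0.05), and largely upward for the others, with 12 higher and 1 lower (median 0.48), where 24.8% of all genes were called higher and 21.6% lower. Without E16 replicate 1 that step had 5 enzymes higher and 4 lower, and 12 other members higher and 0 lower (Car9, the 1 lost, is described further on).

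Only part of these changes were large. When a call also needed a size over 1.2 and a mean over 7 in the higher group, 2 enzymes and 5 other members were higher at E18 than the mean of its neighbours and none was lower, against 1.47% and 1.22% of all genes. Without either of the E16 arrays, the counts higher at E18 were 6 enzymes, since Pgam1 and Ldha no longer passed, and 15 others. Markers of dividing cells moved over the same step, since 11 of 11 represented were lower at E18 than at E16 (median -2.46) and 7 were higher at P2 than at E18 (median 0.57), with summed levels of 15.08 to 15.16 at E16, 12.80 to 12.93 at E18 and 13.49 to 13.50 at P2. Markers of neutrophils and macrophages summed to 9.64 to 10.05 at E16, 11.90 to 12.38 at E18 and 13.88 to 14.03 at P2. Endothelial markers were higher at E18 than the mean of E16 and P2 for 5 of 7 and lower for 1 (median 0.62), with sums of 12.36 to 12.38 at E16, 13.53 to 13.58 at E18 and 13.76 to 13.80 at P2. Lung epithelial markers were higher for 5 of 9 and lower for 1 (median 0.71), with sums of 14.93 to 15.12 at E16, 16.38 on both E18 arrays and 16.55 to 16.56 at P2. These medians stand beside 0.30 for the enzymes and 0.71 for the other members, and the part of any of these cell types in the members' changes was not tested.

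**Figure D1:**
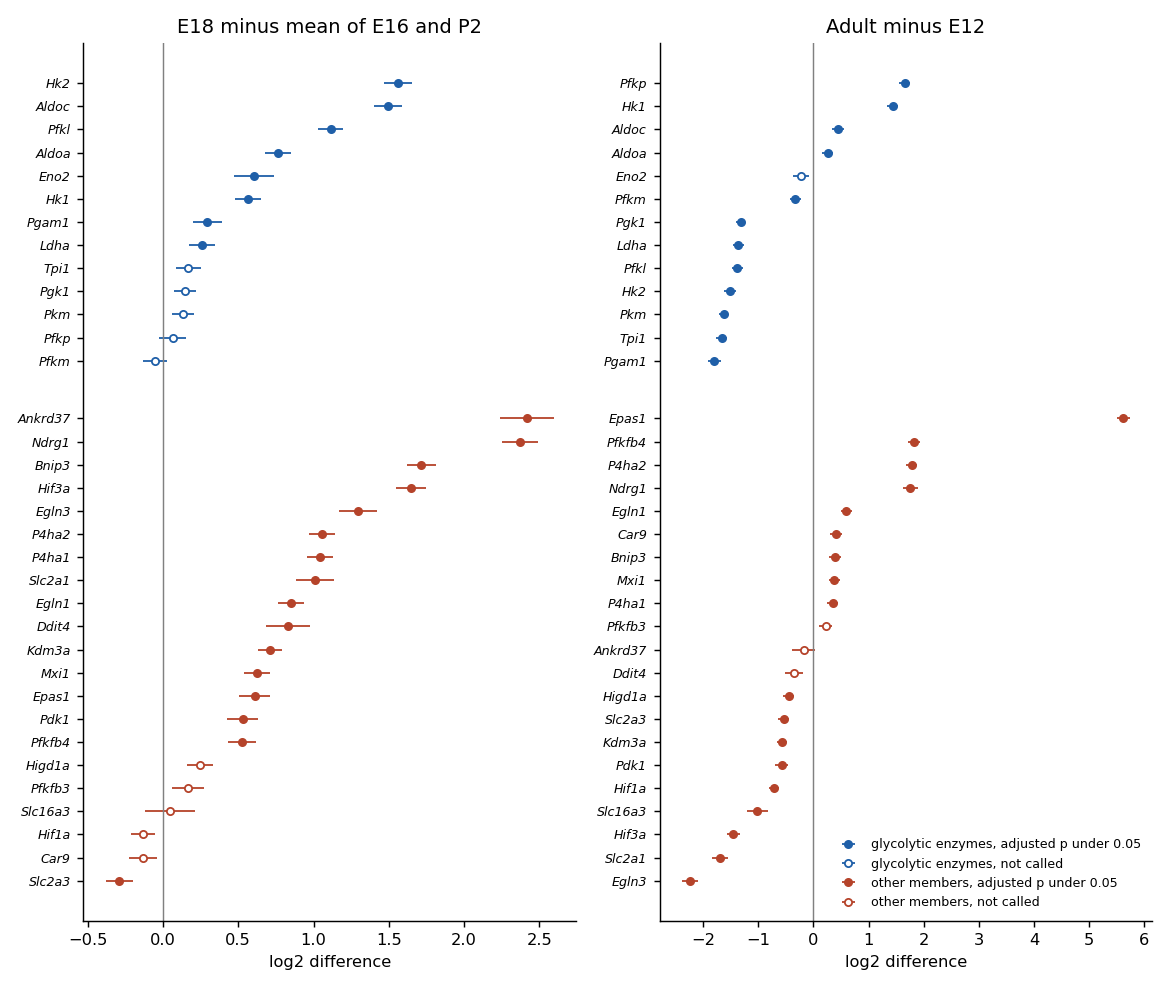
Log2 differences of the 34 represented members between E18 and the mean of E16 and P2 (left) and between Adult and E12 (right), with bars for the standard error, glycolytic enzymes in blue and other members in red. Filled points have an adjusted p under 0.05: 23 of the 24 filled points on the left lie above 0, while on the right 8 of 13 enzymes are filled and below 0.

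The 3 HIF alpha subunits, which pair with ARNT to form the factor, took different courses. Hif1a, the broadly expressed subunit, read 11.70 and 11.65 at E12, 11.63 and 11.69 at E14, 11.52 and 11.64 at E16, 11.32 and 11.37 at E18, 11.33 and 11.42 at P2, 11.44 and 11.60 at P10, and 10.95 and 10.96 in Adult. Both Adult arrays lay below all others. The fall from P10 to Adult was 0.56 (SE 0.09, adjusted p = 0.00041), and the largest earlier step, -0.23 from E16 to E18, did not pass (adjusted p = 0.058). The timing differed between its 4 probe sets, since a dimmer one fell by 0.78 from E16 to E18 (adjusted p = 0.001) and by 0.47 from P10 to Adult (adjusted p = 0.036), while the other two passed at neither step. From E12 to Adult all 4 fell, by 0.53 to 1.64.

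Epas1, the subunit of endothelium and type II cells, read 8.72 and 8.52 at E12, 9.28 and 9.44 at E14, 10.51 and 10.16 at E16, 12.53 and 12.38 at E18, 13.37 and 13.36 at P2, 13.73 and 13.79 at P10, and 14.23 and 14.25 in Adult. No time point overlapped with the next, and each step upward passed the test but the one from P2 to P10 (0.39, SE 0.12, adjusted p = 0.071). Over the whole course Epas1 rose by 5.62 (SE 0.12, adjusted p = 5.9e-13), a 49.2-fold difference and the widest among the represented members, and its dimmer probe set rose by 3.33. On that probe set the steps to E14 and E16 were -0.05 and 0.15 (adjusted p = 0.94 and 0.62), so the rise before E16 rests on the brighter one. The 7 endothelial markers rose alongside, from sums of 11.43 and 11.47 at E12 to 14.49 and 14.57 in Adult, and their part in the rise of Epas1 was not tested.

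Hif3a, whose protein includes forms that restrain the other subunits, peaked before birth. It read 9.39 and 9.30 at E12, 9.45 and 9.63 at E14, 10.43 and 10.36 at E16, 11.27 and 11.35 at E18, 9.02 and 8.84 at P2, 8.14 and 8.46 at P10, and 7.90 and 7.89 in Adult. Both E18 arrays were above all others, and the step to P2 was a 5.22-fold fall, by 2.38 (SE 0.11, adjusted p = 3.9e-08). Of its 6 probe sets, 5 showed the E18 peak with adjusted p under 0.05, and the dimmest differed by 0.26 (adjusted p = 0.16).

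**Figure D2:**
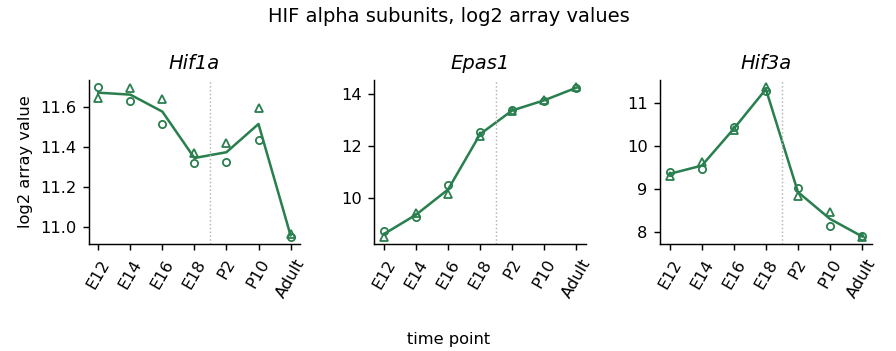
Log2 array values of Hif1a, Epas1 and Hif3a at the 7 time points, each panel with its own vertical axis, circles for replicate 1, triangles for replicate 2, lines through the means and a dotted line at birth. Hif1a spans 0.71 from E12 to Adult, Epas1 climbs by 5.62, and Hif3a is highest at E18.

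The oxygen sensors, prolyl hydroxylases that mark HIF alpha for destruction and are themselves HIF targets, were both highest at E18. Egln3 read 8.06 and 8.06 at E12, 8.63 and 9.09 at E14, 9.97 and 9.85 at E16, 10.40 and 10.39 at E18, 8.26 and 8.31 at P2, 7.54 and 7.79 at P10, and 5.97 and 5.68 in Adult. It rose over every step before birth, with 0.48 (SE 0.14, adjusted p = 0.016) for the last one, a call that was lost without E16 replicate 2 or either E18 array. Over every step after birth Egln3 fell, and the first of these was a fall by 2.11 (SE 0.14, adjusted p = 7.6e-07). The Adult arrays of Egln3 lay below those of E12 by 2.24 (adjusted p = 9.5e-09), and by 0.92 on its other probe set. Egln1, the main sensor in most tissues, rose by 0.78 from E16 to E18 and fell by 0.92 to P2 (adjusted p = 2.7e-05 and 4e-05). Between E12 and Adult its probe sets disagreed, with 0.60 on the brighter one and -0.38 on the other.

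Among genes that low oxygen induces outside glycolysis, Ankrd37, Ndrg1 and Bnip3 had the largest excess at E18 over the mean of E16 and P2. Ankrd37, an ankyrin repeat protein and HIF target, read 7.19 and 7.27 at E12, 7.38 and 7.77 at E14, 8.37 and 8.30 at E16, 10.63 and 9.78 at E18, 7.36 and 7.12 at P2, 7.67 and 7.71 at P10, and 7.12 and 6.99 in Adult. Its E18 arrays differed by more than those of any other time point, yet both lay above the other 12 arrays. E18 exceeded the mean of E16 and P2 by 2.42 (SE 0.18, adjusted p = 4.9e-07), a 5.34-fold difference.

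Ndrg1, a stress-induced gene of differentiating cells, read 6.96 and 7.28 at E12, 7.43 and 7.66 at E14, 9.02 and 8.63 at E16, 11.06 and 10.88 at E18, 8.36 and 8.39 at P2, 8.17 and 8.20 at P10, and 8.93 and 8.83 in Adult. The peak of 2.37 (SE 0.12, adjusted p = 3.4e-08) was shared by its 5 probe sets, which gave 1.69 to 2.52. Unlike Ankrd37, Ndrg1 stayed higher in Adult than at E12, by 1.76 (SE 0.14, adjusted p = 7.9e-08).

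Bnip3, a receptor for removal of mitochondria, read 9.84 and 10.09 at E12, 10.02 and 9.92 at E14, 10.40 and 10.21 at E16, 11.78 and 11.95 at E18, 10.04 and 9.94 at P2, 9.54 and 9.55 at P10, and 10.39 and 10.32 in Adult. Both E18 arrays lay above all others, with a peak of 1.72 (SE 0.09, adjusted p = 5.4e-08), P2 was back in the E12 and E14 range, and both P10 arrays lay below all others. Its window carries the 5 matches printed above, with its CACGTG counted once on each strand. Higd1a, a protein of the respiratory chain that hypoxia induces, fell by 0.43 across birth (adjusted p = 0.012), a call lost when any 1 of the E18 and P2 arrays was left out. Its E18 excess of 0.25 over the mean of E16 and P2 did not pass (adjusted p = 0.053), while its dimmer probe sets gave 0.59 and 0.52.

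P4ha1 and P4ha2, catalytic subunits of the prolyl hydroxylase that stabilises collagen, rose into E18 by 0.81 and 0.96 (adjusted p = 1.6e-05 and 4.3e-06) and fell by 1.27 and 1.15 to P2. P4ha2 read 7.75 and 7.85 at E12, 7.67 and 7.76 at E14, 8.10 and 7.90 at E16, 8.97 and 8.95 at E18, 7.90 and 7.72 at P2, 7.85 and 7.99 at P10, and 9.58 and 9.59 in Adult. It therefore had 2 high points, of which the Adult one was the higher. Kdm3a, a histone demethylase, Mxi1, an antagonist of MYC, and Ddit4, an inhibitor of mTORC1, exceeded the mean of E16 and P2 by 0.71, 0.62 and 0.83 at E18. Each fell from E18 to P2, by 2.01-fold for Kdm3a and by 0.62 and 1.29 on the log2 scale for Mxi1 and Ddit4. The step of Ddit4 from E16 to E18 was 0.37 and did not pass (adjusted p = 0.0962). Its E18 arrays (10.66 and 10.39) overlapped those of E14 (10.25 and 10.53).

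Car9, a carbonic anhydrase widely used as a hypoxia marker, did not follow them. It read 6.25 and 6.29 at E12, 6.55 and 6.78 at E14, 6.95 and 6.88 at E16, 6.51 and 6.66 at E18, 6.61 and 6.42 at P2, 6.34 and 6.28 at P10, and 6.59 and 6.77 in Adult. All 14 values were below 7, the level that was asked of a well-measured gene. Car9 fell by 0.33 into E18 (SE 0.11, adjusted p = 0.025), a call that was lost without E16 replicate 1 (-0.30, adjusted p = 0.118), E16 replicate 2 or E18 replicate 1.

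**Figure D3:**
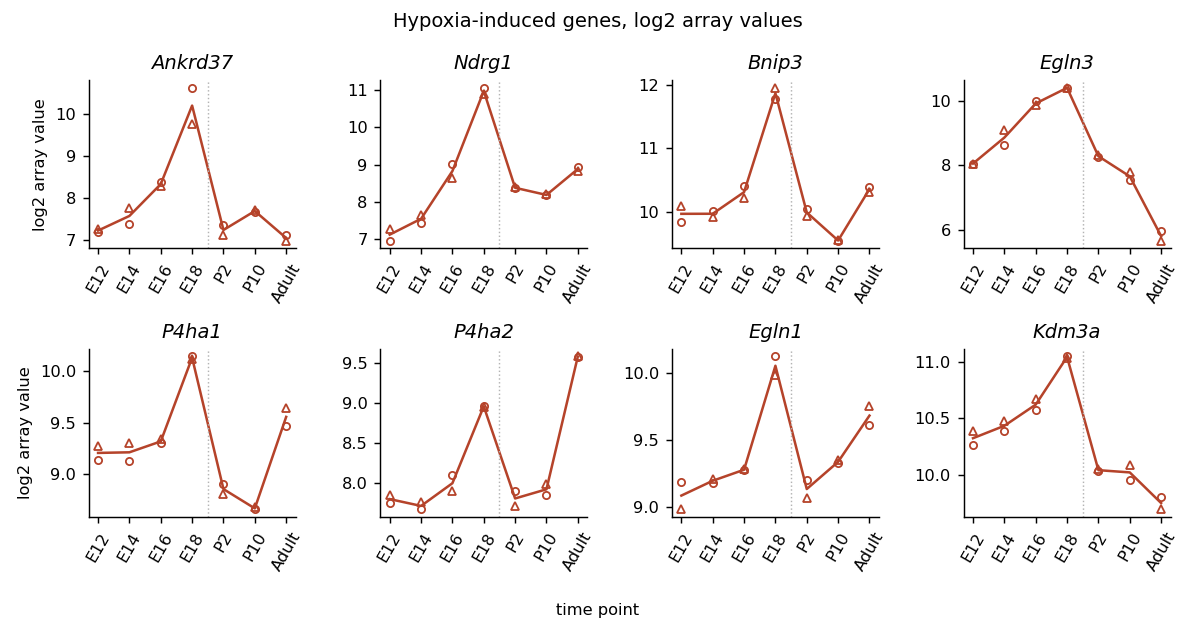
Log2 array values of 8 members with an E18 peak at the 7 time points, each panel with its own vertical axis, circles for replicate 1, triangles for replicate 2, lines through the means and a dotted line at birth. In each panel E18 lies above E16 and P2, and for P4ha2 the Adult values are higher still.

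The glucose transporters Slc2a1 and Slc2a3 moved in opposite ways at birth. Slc2a1 (GLUT1), the basal glucose transporter, read 9.99 and 10.19 at E12, 9.99 and 10.14 at E14, 10.17 and 9.82 at E16, 9.76 and 10.01 at E18, 7.81 and 7.70 at P2, 7.08 and 7.15 at P10, and 8.59 and 8.20 in Adult. The embryonic arrays overlapped throughout, and all postnatal arrays lay below them. The fall from E18 to P2 was 2.13 (SE 0.15, adjusted p = 9.2e-07) or 4.38-fold, and from P10 to Adult the level rose again by 1.28 (SE 0.15, adjusted p = 2.4e-05). Its other probe sets gave falls of 2.05 and 1.95 across birth. Slc2a3 (GLUT3), a high-affinity transporter, fell before birth, by 0.55 to E14 and 0.47 to E16, and its step across birth was a rise by 0.68 (SE 0.10, adjusted p = 0.00066). Slc2a3 was the 1 member lower at E18 than the mean of its neighbours, by 0.29, and this call was lost without E16 replicate 2, E18 replicate 1 or P2 replicate 1. Slc16a3, the lactate exporter MCT4, fell by 0.61 from E14 to E16 (adjusted p = 0.042), and its difference of -0.20 from E18 to P2 did not pass (adjusted p = 0.57).

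Regulators of the flux through glycolysis were mixed. Pdk1, the kinase that closes pyruvate dehydrogenase, rose by 0.74 from E12 to E14 and fell across birth by 0.98 (SE 0.12, adjusted p = 0.00011). Its probe sets disagreed on the step to E14, from -0.004 (adjusted p = 0.996) to 0.97 (adjusted p = 0.013). Its step into E18 was 0.08 (adjusted p = 0.66), and the others ran from -0.31 (adjusted p = 0.228) to 0.66 (adjusted p = 0.003). Of its 4 probe sets 2 were highest at E18. Against the mean of E16 and P2 the 4 gave 0.39 (adjusted p = 0.11) to 1.25 (adjusted p = 1e-05). Pfkfb4, which makes the activator of phosphofructokinase, read 7.14 and 7.36 at E12, 7.36 and 7.19 at E14, 7.68 and 7.47 at E16, 8.74 and 8.59 at E18, 8.74 and 8.67 at P2, 8.59 and 8.56 at P10, and 9.06 and 9.08 in Adult. Into E18 it stepped up by 1.09 (SE 0.11, adjusted p = 2.5e-06), and its difference across birth was 0.04 (SE 0.11, adjusted p = 0.88), with overlapping arrays. Pfkfb3, its relative, fell by 0.75 from E14 to E16 and rose by 0.59 to P10 and by 0.71 to Adult. On its dimmer probe set these steps were -0.41, -0.03 and 0.43, and none passed (adjusted p = 0.0905, 0.948 and 0.054).

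Some enzymes at the top of glycolysis, which prime glucose and split the sugar, rose into E18, and those that fell act later. Pfkm and Pfkp, which act before aldolase, did not pass from E16 to E18 (-0.16 and 0.05, adjusted p = 0.205 and 0.739), nor did Ldha (-0.25, adjusted p = 0.0655). The 6 that rose were Hk1, Hk2, Pfkl, Aldoa, Aldoc and Eno2, and the 4 that fell were Tpi1, Pgk1, Pgam1 and Pkm. All of these 4 act after aldolase, as does Eno2. Gapdh, between them in the pathway, was also lower at E18 on its 3 control probe sets, by 0.49, 0.57 and 0.54 (adjusted p = 0.000435, 0.000504 and 0.000234). Whether the enzyme groups differ from each other was not tested. Leaving out E16 replicate 1 took the rise of Pfkl (0.30, adjusted p = 0.073) out of the 6, as did leaving out E18 replicate 1. The fall of Pgam1 was not called without E16 replicate 2 or E18 replicate 1, and the rise of Aldoa passed on 3 of its 5 probe sets (the other two gave 0.28 and 0.33, adjusted p = 0.096 and 0.052). The call of Eno2 was lost in 9 of the fits that left out 1 array, with differences of 0.18 to 0.65.

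Hk2, the hexokinase that insulin and HIF induce, read 9.91 and 9.79 at E12, 9.64 and 9.49 at E14, 8.85 and 8.89 at E16, 9.57 and 9.75 at E18, 7.36 and 7.29 at P2, 7.34 and 7.06 at P10, and 8.30 and 8.39 in Adult. After a dip at E16 the E18 arrays overlapped those of E14, and from there Hk2 fell by 2.34 (SE 0.11, adjusted p = 3.7e-08) or 5.05-fold to P2, the largest fall across birth among the represented enzymes. Hk1, the constitutive hexokinase, rose by 0.77 from E16 to E18 (adjusted p = 2.9e-05), fell by 0.36 to P2 (adjusted p = 0.024, not called when any 1 of the E18 and P2 arrays was left out) and was 1.44 higher in Adult than at E12.

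Phosphofructokinase sets the pace of glycolysis and has 3 isoforms, which parted. Pfkl, the liver type, read 10.43 and 10.42 at E12, 10.61 and 10.66 at E14, 9.96 and 10.10 at E16, 10.43 and 10.36 at E18, 8.56 and 8.50 at P2, 8.73 and 8.94 at P10, and 9.10 and 8.99 in Adult. All of its embryonic arrays were above all postnatal ones, and the fall across birth was 1.86 (SE 0.10, adjusted p = 7.7e-08) or 3.64-fold, with 1.28 and 0.25 on its dimmer probe sets. Pfkp, the platelet type, read 7.63 and 7.55 at E12, 8.17 and 8.44 at E14, 8.59 and 8.40 at E16, 8.50 and 8.60 at E18, 8.47 and 8.48 at P2, 8.85 and 8.80 at P10, and 9.21 and 9.29 in Adult. Pfkp rose by 0.71 (adjusted p = 0.0023) to E14, passed at no step from E14 to P2 and was highest in Adult. Pfkm, the muscle type, had time-point means between 8.99 and 9.31, and its E18 to P2 difference was -0.06 (adjusted p = 0.76).

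Aldolases split the 6-carbon sugar. Aldoc, the brain type, read 7.37 and 7.25 at E12, 7.15 and 7.19 at E14, 7.32 and 7.16 at E16, 9.09 and 8.84 at E18, 7.72 and 7.67 at P2, 7.06 and 7.00 at P10, and 7.87 and 7.64 in Adult. Both E18 arrays stood clear of every other array, 2.82-fold over the mean of E16 and P2 (adjusted p = 1.4e-07). Aldoa, the muscle and embryonic type, read 11.30 and 11.22 at E12, 11.30 and 11.27 at E14, 11.12 and 10.87 at E16, 11.48 and 11.56 at E18, 10.51 and 10.51 at P2, 10.37 and 10.46 at P10, and 11.60 and 11.44 in Adult. Across birth it had a 2.01-fold fall (adjusted p = 2e-05), and it rose by 1.11 (adjusted p = 2.6e-06) from P10 to Adult, so that its Adult and E18 arrays overlapped. Eno2, the neuronal enolase, stayed below 7 on each array, and read 5.77 and 5.92 at E12, 5.70 and 6.05 at E14, 6.14 and 5.68 at E16, 6.38 and 6.27 at E18, 5.45 and 5.61 at P2, 5.23 and 5.44 at P10, and 5.59 and 5.65 in Adult. Its fall from E18 to P2 was 0.80 (SE 0.15, adjusted p = 0.0031).

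The other enzymes after aldolase declined over the course with no maximum at E18. Tpi1, which interconverts the triose phosphates, read 12.18 and 12.37 at E12, 12.25 and 12.28 at E14, 12.24 and 12.21 at E16, 11.64 and 11.73 at E18, 10.88 and 10.75 at P2, 10.46 and 10.61 at P10, and 10.66 and 10.58 in Adult. Its level held to E16, then fell by 0.54 to E18 and 0.87 to P2 (adjusted p = 0.00049 and 5e-05). Pgam1, a phosphoglycerate mutase, read 11.54 and 11.64 at E12, 11.64 and 11.71 at E14, 11.25 and 11.30 at E16, 10.77 and 10.99 at E18, 9.87 and 9.93 at P2, 9.86 and 9.86 at P10, and 9.96 and 9.63 in Adult. Pkm, the pyruvate kinase gene of most tissues, read 12.73 and 12.70 at E12, 12.54 and 12.57 at E14, 12.03 and 12.18 at E16, 11.59 and 11.61 at E18, 10.81 and 10.84 at P2, 10.82 and 10.85 at P10, and 11.14 and 11.04 in Adult. For both genes each time point from E16 to P2 lay below the one before, and the steps across birth were -0.98 and -0.78. Pgk1 (phosphoglycerate kinase) and Ldha, which makes lactate, fell by 0.70 and 0.77 across birth (adjusted p = 9.5e-05 and 0.00017).

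Gapdh followed the same course on its control probe sets. The probe set at the 3' end read 13.78 and 13.81 at E12, 13.76 and 13.78 at E14, 13.62 and 13.71 at E16, 13.13 and 13.20 at E18, 12.55 and 12.57 at P2, 12.24 and 12.30 at P10, and 12.54 and 12.39 in Adult. The falls across birth on the 3 probe sets were 0.60, 0.54 and 0.62, and those from E12 to Adult were 1.33, 1.49 and 1.52. RNA length, measured as the 3' minus the 5' signal of Gapdh, ran from -0.17 to 0.15 over the arrays, and that of beta-actin from 0.35 to 0.87, with 0.74 on E18 replicate 1 and 0.87 on Adult replicate 2. The part of RNA length in these results was not tested.

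**Figure D4:**
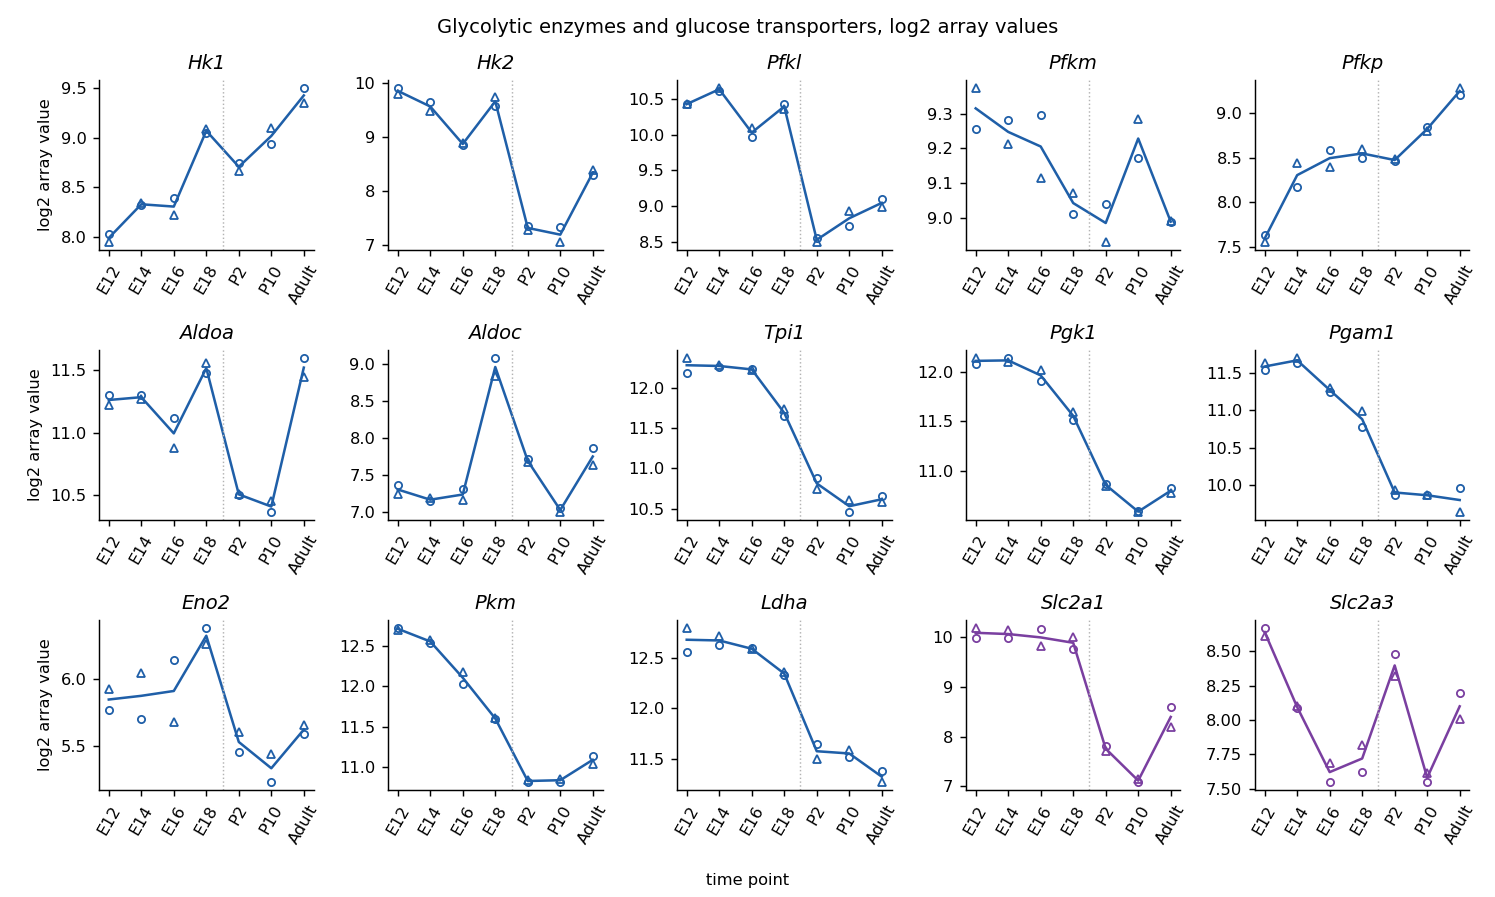
Log2 array values of the 13 represented glycolytic enzymes (blue) and 2 glucose transporters (purple) at the 7 time points, each panel with its own vertical axis, circles for replicate 1, triangles for replicate 2, lines through the means and a dotted line at birth. Hk2, Pfkl and Slc2a1 drop by 2.34, 1.86 and 2.13 after E18, Aldoc peaks at E18, and Tpi1, Pgk1, Pgam1, Pkm and Ldha are lower in Adult than at E12.

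Between the ends of the time course the enzymes were mostly lower and the other members were split. In Adult against E12, 8 of 13 enzymes were lower and 4 higher (median -1.32), and 9 of 21 other members were higher and 9 lower (median -0.18), where 35% of all genes were called higher and 30.2% lower (median 0.08). When a call also needed a size over 1.2 and a mean over 7 in the higher group, 7 enzymes were lower and 2 higher, and 4 other members were higher and 3 lower, against 11.5% of all genes higher and 9.84% lower. The 7 enzymes were Pgam1 (-1.79, SE 0.11), Tpi1 (-1.66, SE 0.10), Pkm (-1.63, SE 0.09), Hk2 (-1.51, SE 0.11), Pfkl (-1.38, SE 0.10), Ldha (-1.36, SE 0.10) and Pgk1 (-1.32, SE 0.08), with adjusted p of 3.6e-08 or less. The 2 that rose this far were Pfkp (1.65, SE 0.10) and Hk1 (1.44, SE 0.10). Aldoc and Aldoa were higher by 0.45 and 0.26, the latter not called in 5 of the 14 fits that left out 1 array. The other probe sets of Aldoa gave 0.08 to 0.17 and did not pass (adjusted p = 0.264 to 0.567). Among the others Epas1, Pfkfb4, P4ha2 and Ndrg1 rose by more than 1.2, and Egln3, Slc2a1 and Hif3a fell by 2.24, 1.69 and 1.45. The 11 dividing-cell markers fell over the same span by a median of 4.34, and red blood cell markers from sums of 14.74 to 14.76 at E12 to 10.03 to 10.98 in Adult. Endothelial markers were higher for 7 of 7 (median 2.80), and lung epithelial markers were higher for 7 of 9 and lower for 1 (median 3.94). The part of any of these cell types in the members' changes was not tested.

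Across all 7 time points 34 of 34 represented members differed in the F test, where 73.2% of all genes did, and 25 of 34 did so with a highest mean above 7 and a range above 1.2, where 26.7% did. The mean was highest at E18 for 13 members, 2 of them enzymes (Aldoc and Eno2), against 2541 of all 18193 genes. At E12 it was highest for 8 members, of which 5 were enzymes, against 3845 of all genes, a similar share. It was lowest at P10 for 11 members, against 1487 of all genes.

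Other steps moved fewer members. From E12 to E14, 1 enzyme (Pfkp) and 3 other members (Pdk1, Epas1 and Egln3) were higher and Slc2a3 was lower, where 3.41% of all genes were called higher and 0.918% lower. From E14 to E16, 4 enzymes (Hk2, Pfkl, Pgam1 and Pkm) were lower, while 6 other members were higher (Ndrg1, Egln3, Epas1, Hif3a, Ankrd37 and Bnip3) and 3 were lower, where 9.95% of all genes were called higher and 10.6% lower. Without E16 replicate 1, Bnip3 (0.24, adjusted p = 0.323), Ankrd37 (0.72, adjusted p = 0.126), Slc2a3 (-0.40, adjusted p = 0.0782), Slc16a3 (-0.78, adjusted p = 0.0508) and Pgam1 (-0.37, adjusted p = 0.152) no longer passed, and Aldoa (-0.41, adjusted p = 0.0428) did. The 6 other members called higher at E16 than at E14 with all arrays were all higher again at E18 than at E16. The largest step to E16 was that of Ndrg1 with 1.28 (SE 0.14, adjusted p = 4.4e-05), or 1.09 without E16 replicate 1. From P2 to P10, 1 enzyme (Aldoc) and 5 other members were lower and Pfkfb3 was higher, where 4.37% of all genes were called lower and 4.82% higher.

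A second rise came after P10. From P10 to Adult, 6 enzymes and 12 other members were higher, and 5 other members were lower, where 16.8% of all genes were called higher and 14.9% lower. The lowest enzyme differences, -0.24 for Pfkm and -0.23 for Ldha, did not pass (adjusted p = 0.086 and 0.11). Over the same step 11 of 11 dividing-cell markers were lower (median -2.09), and 4 of 7 endothelial and 4 of 9 lung epithelial markers were higher (medians 0.46 and 0.43), and their part was not tested. Hk2 rose by 1.14, Aldoa by 1.11, Slc2a1 by 1.28, P4ha2 by 1.66 and Bnip3 by 0.81, while Egln3 fell by 1.84. P2 against E16, which skips E18, had 8 enzymes lower and 2 higher and 12 other members lower and 3 higher, where 22.8% of all genes were called lower and 23.3% higher. Without E16 replicate 1 the 12 became 9, as Bnip3, Ndrg1 and Car9 no longer passed. Slc2a1 was 2.24 lower at P2 than at E16, and Epas1 was 3.04 higher.

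Further genes of the same pathways were counted whole, and each count at E18 stands beside the 19.1% of all genes called higher and 16.3% called lower there. Of 24 represented hypoxia targets outside the module, 16 were higher at E18 than the mean of E16 and P2 and 2 were lower (median 0.58). The largest were Igfbp3, a binding protein of insulin-like growth factors (1.83, SE 0.14), Adm, the vasodilator adrenomedullin (1.73, SE 0.11), Bhlhe40, a transcriptional repressor (1.42), and Lox, which crosslinks collagen and elastin (2.29-fold). From E18 to P2, 13 of the 24 were lower and 1 higher, where 10% of all genes were called lower and 8.58% higher. Genes of glycogen storage and release had 7 higher and 1 lower of 15 at E18, led by Ppp1r3b (1.88, SE 0.12), a glycogen-targeting subunit of protein phosphatase 1, Pygl (1.22), the liver glycogen phosphorylase, Pgm1 (0.87), a phosphoglucomutase, and Pygm (0.61), the muscle phosphorylase. Across birth Ppp1r3b fell by 3.46 (SE 0.14, adjusted p = 1.3e-08), and its arrays read 10.66 and 10.56 before and 7.02 and 7.29 after birth, with no overlap.

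Genes of pyruvate entry into mitochondria had 5 higher and 1 lower of 12 at E18. Pdk4, a starvation-induced pyruvate dehydrogenase kinase, peaked by 1.58 (SE 0.14), Pdk2 by 0.95 and the phosphatase Pdp2 by 0.59, and the transporter Slc16a1 by 0.46. Among 12 partners and regulators of HIF, 4 were higher and 4 lower at E18. Arnt2, a neural partner of the alpha subunits, was lowest here, by 1.29, and was 12.5-fold lower in Adult than at E12 (adjusted p = 4e-11), while Arnt, the general partner, differed by 0.14 (adjusted p = 0.25) between those ends. Cited2, which competes with HIF for its coactivator, peaked by 1.01 (SE 0.11), Eloc of the VHL complex was lower by 0.57, and the coactivator Crebbp was higher by 0.50.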

How the data were processed

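The authors deposited log2 expression values of Affymetrix whole-genome mouse arrays, which were used as deposited. The study's methods name Robust Multichip Average in Partek Genomics Suite 6.4, whereas the submitters' processing notes name GCRMA, so the summary method is not settled. Tests passed over 64 control probe sets of the manufacturer, and Gapdh and beta-actin among them were fitted separately beside all probe sets. Symbols came from the platform annotation, with 34945 probe sets carrying 1 symbol, 932 several and 9160 none.

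One mean per time point was fitted to all 14 arrays and 45037 probe sets with limma 3.58.1 in R 4.3.3 (residual df 7, prior df 6.04), with p-values adjusted by Benjamini-Hochberg over all probe sets and called under 0.05. The fit was tested on simulated data. The number of arrays, 2 per time point, limits the precision. Array values were given for the 5 members with the largest E18 peak and the 5 with the largest Adult difference from E12 among enzymes and among other members, and for the HIF alpha subunits, Slc2a1, Car9 and Gapdh. Pathway examples were those with the largest difference, up to 4 a list. The members and lists were chosen with earlier results of these data known. Alternatives covered scaling, moderation, probe set choice, a filter on low values, the call rule, the replicate block and leaving out each array. Same-numbered arrays did not deviate together (correlations from -0.18 to 0.077 over 21 pairs of time points). Plots were drawn with matplotlib 3.10.9.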

Additional observations from a re-analysis of the deposited data

How the results depend on the processing

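Asking of a call also a size over 1.2 and a mean over 7 in the higher group shrank most counts. For E18 against E16 it left 1 enzyme higher and 0 lower, and 4 other members higher and 0 lower. Of all 18193 genes it left 748 higher and 559 lower. For P2 against E18 it left 3 enzymes lower, and 8 other members lower and 0 higher. Of all genes it left 98 higher and 141 lower there. For Adult against E12 it left 2 enzymes higher and 7 of the 8 lower, and 4 other members higher and 3 lower. Of all genes it left 11.5% higher and 9.84% lower there. For E18 against the mean of E16 and P2 it left 2 enzymes higher, and 5 other members higher and 0 lower. Of all genes it left 1.47% higher and 1.22% lower there. The 1 other member lower at E18 than at E16 (Car9) became 2 with median centring, an intensity trend, no moderation or the mean of all probe sets, and 0 to 2 when single arrays were left out. The 1 lower at E18 than the mean of its neighbours (Slc2a3) became 2 with the mean of all probe sets, 0 without probe sets named _x_at, _s_at or _a_at, and 0 to 1 when single arrays were left out. With the replicate block, E18 against E16 had 5 enzymes higher in place of 6, and the other counts of the 5 comparisons were as before. Quantile normalization and the filter on low values kept each count within 1.5 times. Adult minus E12 of Higd1a turned from -0.45 to 0.00484 with the mean of all its probe sets, which disagree among themselves. The cause of the other changes was not tested.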

Other observations

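Of 10 represented isoforms of glycolytic enzymes outside the module, 2 were higher at E18 than the mean of E16 and P2 and 1 was lower (Pgk2, by a difference of -0.36). Over all genes 19.1% were called higher and 16.3% lower in this contrast, and this holds beside each count at E18 here. Pgam2, the muscle phosphoglycerate mutase, was higher by 1.55 (SE 0.28, limma adjusted p = 0.00098) and read 8.34 and 6.80 at E16, 9.32 and 9.43 at E18 and 8.12 and 8.05 at P2, so that its E16 arrays differed in the same direction as the heart muscle markers. Hkdc1, a hexokinase relative, was higher by 0.90 (adjusted p = 1.7e-06) and read 6.88 and 6.93 at E16, 7.85 and 7.84 at E18 and 6.93 and 7.07 at P2.

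Of 7 gluconeogenesis genes, 1 was higher and 1 lower at E18, a share near that of all genes. The higher one was Pcx, pyruvate carboxylase, which feeds oxaloacetate to glucose and lipid synthesis. It read 7.50 and 7.51 at E16, 9.95 and 9.73 at E18 and 7.96 and 7.89 at P2, a peak of 2.13 (SE 0.10, adjusted p = 1.9e-08). The liver genes of the pathway were low throughout, with Pck1 between 3.42 and 3.78 and G6pc between 4.18 and 4.56 as time-point means. Of 6 pentose phosphate genes, 1 was higher at E18 (Rpia, 0.43, adjusted p = 0.0014). In Adult 4 of them were lower than at E12, where 30.2% of all genes were called lower.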
